A study of Mus musculus with 52 samples.

Results

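Glycolysis and hypoxia response genes were followed across 4 treatment groups of subcutaneous mouse pancreatic tumors. The set holds 40 gene symbols, listed by name, and earlier results of these data were known when it was chosen. They run from the glucose transporter Slc2a1 through the glycolytic enzymes and lactate transporters to the HIF subunits, the oxygen sensors and HIF target genes. Matched by symbol, they were found under 41 gene identifiers, since Aldoa is listed under 2, of 27525 identifiers in the table of 32 libraries. Each library is poly(A) RNA of 1 tumor, and each group holds 8 tumors. The tumors grew in the flanks of male C57BL/6NHsd mice, 8 to 10 weeks old, from KPC cells, labelled KxPxCx, a line from a mouse in which Pdx1-Cre switches on mutant tumor driver alleles in the pancreas. All groups therefore share a single cell line with these lesions, placed under the skin of an immunocompetent host. Untreated tumors carry the label Control and no vehicle is named in the sources used here. ADU-S100, a synthetic cyclic dinucleotide agonist of STING, was injected into the tumor once at 2 µg. Anti-LTβR, an agonist antibody to the lymphotoxin β receptor, was given intraperitoneally 4 times at 100 µg. The combination group received both agents, and tumors of all groups were resected on day 14.

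Glycolysis turns glucose into pyruvate in the cytosol, and in many tumors much of that pyruvate is reduced to lactate and exported even when oxygen is present. The hypoxia-inducible factors consist of an oxygen-labile α subunit, HIF-1α (Hif1a) or HIF-2α (Epas1), and a stable partner, Arnt. With oxygen, prolyl hydroxylases of the Egln family mark the α subunit for destruction, so that protein and not mRNA carries most of the oxygen response. When oxygen is short, the dimer binds DNA at short core motifs and raises transcription of glucose transporters, most glycolytic enzymes, lactate exporters, angiogenic factors and genes of mitophagy. Pancreatic tumors are known for dense stroma and poor perfusion.

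The values are normalized read counts as deposited, and a difference between groups is given as a log2 fold change of the normalized count + 1, with its standard error (SE) and the adjusted p of limma across all genes tested; a gene passed at an adjusted p under 0.05. All 41 identifiers passed the filter on low values in each comparison with untreated tumors. Reads per library, recovered from the larger of the deposited tables, ran from 12762453 to 15591986. The keratins of an epithelial line were present, with a median of 7269 normalized counts for Krt8 over the 32 tumors, and Epcam was low at 58.6. The acinar protease gene Prss2 stood at a median of 0.477 over the same tumors, and Cela1, also listed as an acinar marker, at 34.03.

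In combination-treated tumors the set did not move one way. Compared with untreated tumors, 7 of 41 members rose and 8 fell, which is 17.1% and 19.5% of the members against 19.6% and 23.6% of the 16909 genes tested. These shares are near the background, and the members' median log2 fold change was −0.11 against −0.02 over all genes tested. The risers were Eno2, Pfkfb3, Epas1, Slc16a3, Egln3, Hif1a and Hk2, and the members that fell were Slc16a1, Eno1, Slc2a1, Pgk1, Higd1a, Ldha, Pgam1 and P4ha1. With the deposited values rescaled by TMM factors the split became 7 higher and 4 lower, as Higd1a, Ldha, Pgam1 and P4ha1 no longer passed. Only Eno2 also changed by at least 2-fold, where the background was 5.16% of genes higher and 0.952% lower. The 8 combination tumors lay wholly above the 8 untreated tumors for Eno2, Pfkfb3, Epas1 and Hif1a and wholly below them for Slc16a1, against 4.64% and 6.04% of all genes without overlap in those directions.

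**Figure D1:**
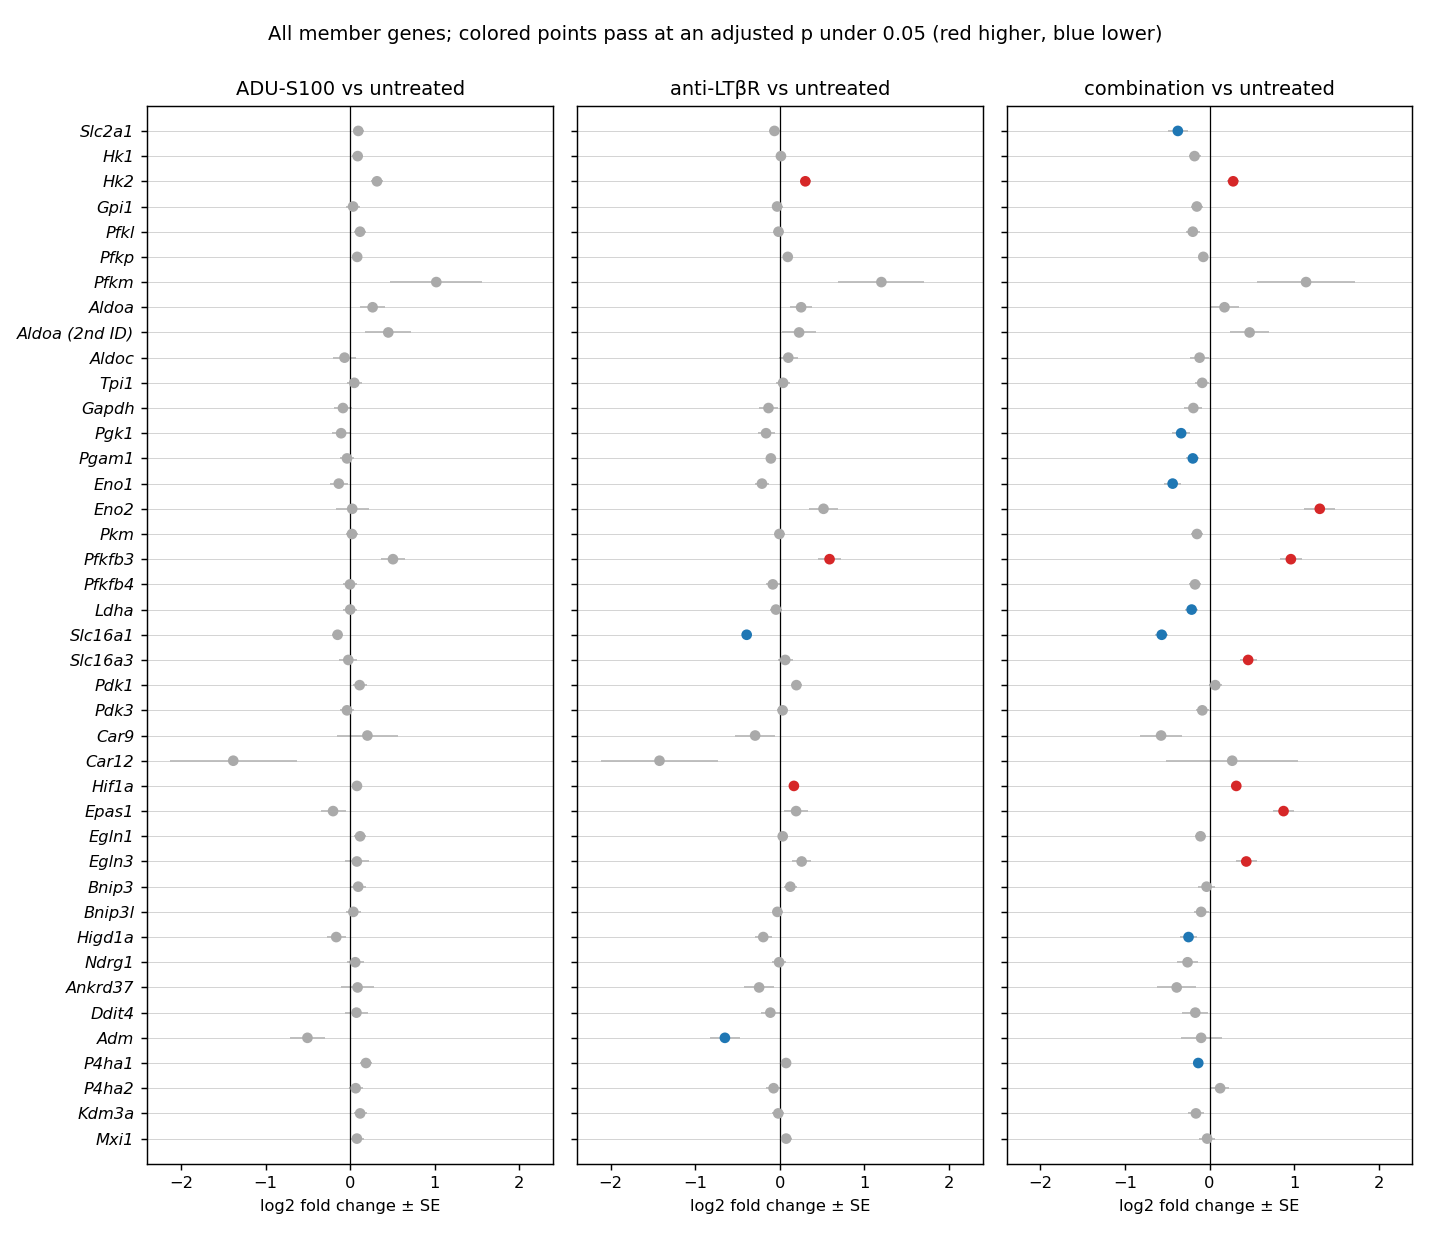
Log2 fold change (x axis) of each of the 41 gene identifiers (y axis, ordered by role) in each treatment against untreated tumors, with SE bars; red (higher) and blue (lower) points pass at an adjusted p under 0.05 and gray points do not (limma, 8 tumors a group). In the combination panel 7 points are red and 8 blue, and Eno2, at 1.30, is the farthest passing member.

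Uptake and trapping of glucose split by gene. Slc2a1, which encodes the basal glucose transporter GLUT1, had 5800.2, 6421 and 7403 normalized counts (lowest, median and highest of 8 tumors) in untreated tumors, 6270.4, 6915 and 7544 with ADU-S100, 5768, 6151 and 6857 with anti-LTβR and 3346, 5097 and 7015 with the combination. All but 1 of the combination tumors lay below the lowest untreated tumor, and the remaining tumor lay among them. Slc2a1 fell by 0.37 on the log2 scale (SE 0.12, adjusted p = 0.016, limma). Hk2, the inducible hexokinase that commits glucose to the cell as glucose 6-phosphate, had 2394, 2863 and 3353 in untreated tumors, 2983, 3618 and 4082 with ADU-S100, 3123, 3462 and 3943 with anti-LTβR and 3118, 3362 and 3942 with the combination. Each treated group overlapped the upper part of the untreated range. Hk2 rose with the combination by 0.28 ± 0.07 (log2 fold change ± SE, adjusted p = 0.0048, limma). In the few tumors low in skeletal muscle RNA, described with Pfkm, it stood at 0.16 and did not pass (adjusted p = 0.30). It passed in 14 of 15 alternatives, among them the fit with muscle RNA as a covariate. Hk1, the constitutive hexokinase, did not pass (−0.18, adjusted p = 0.054). Per kilobase of exon, the median ratio of Hk2 to Hk1 was 1.02 without treatment, 1.29 after ADU-S100, 1.30 after the antibody and 1.47 after both.

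Among the glycolytic enzymes, 1 of 14 identifiers rose and 3 fell, or 7.14% and 21.4% against 19.6% and 23.6% of all genes tested. Eno2, the enolase isozyme typical of neurons and neuroendocrine cells, had 51.2, 88.8 and 114 normalized counts in untreated tumors, 64.3, 79.5 and 144 with ADU-S100, 86.9, 124 and 152 with anti-LTβR and 148, 205 and 318 with the combination. Every combination tumor exceeded every untreated tumor, while the ADU-S100 range overlapped the untreated range. The increase was 1.30 ± 0.18 on the log2 scale (adjusted p = 6.26e-05, limma), from 85.8 ± 23.8 to 211 ± 52.6 normalized counts (mean ± SD, n = 8). Eno1, the ubiquitous enolase, moved the other way. It had 9368, 11361 and 15376 in untreated tumors, 8840.3, 10855 and 12674 with ADU-S100, 9307, 10292 and 10619 with anti-LTβR and 6904, 8539 and 10445 with the combination, and it fell by 0.44 on the log2 scale (SE 0.10, adjusted p = 0.0029, limma). Per kilobase, Eno2 remained a small part of enolase mRNA, with a median ratio to Eno1 of 0.00805 in untreated and 0.0252 in combination tumors. Counts listed under near-identical copies of Eno1, described below, are left out of this ratio.

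Pgk1, which makes the first ATP of the pathway, had 2627, 3047 and 4597 normalized counts in untreated tumors, 2459.7, 3198 and 3573 with ADU-S100, 2665, 2898 and 3263 with anti-LTβR and 2321, 2597 and 3078 with the combination. The ranges overlapped widely, and Pgk1 fell by 0.34 (log2, SE 0.11, adjusted p = 0.017, limma). Pgam1, the phosphoglycerate mutase between Pgk1 and enolase, was barely past the threshold (−0.20 ± 0.08, adjusted p = 0.0496, limma). The other 10 identifiers of the enzymes did not pass: log2 fold changes were −0.09 for Tpi1, −0.15 for Gpi1 and for Pkm, −0.19 for Gapdh, −0.20 for Pfkl, −0.07 for Pfkp and −0.12 for Aldoc. Pfkm, the muscle phosphofructokinase, stood at 1.14 with an SE of 0.58, the widest error among the enzymes, and Aldoa at 0.18 under its main identifier and 0.47 under the other.

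Several of these enzymes have near-identical processed copies in the mouse genome, and counts were also listed under these copies. Copies with at least 95% sequence identity over at least 50% of their length took a median of 85.9% of the family's normalized counts for Gapdh (82.5 to 87.5% over the 32 tumors), 80.3% for Pgk1, 66.1% for Eno1, 35.7% for Pgam1 and 33.1% for Bnip3l. The largest, Gm7336, was listed at a median of 31322 against 5327 for Gapdh itself. Reads of a member and of its copies cannot be told apart with certainty in these counts, so the levels of these members are uncertain. Summed with its copies, Eno1 still fell by 0.42 (log2, adjusted p = 0.0040, limma) and Pgk1 by 0.28 (adjusted p = 0.024), while Pgam1 no longer passed (adjusted p = 0.067).

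**Figure D2:**
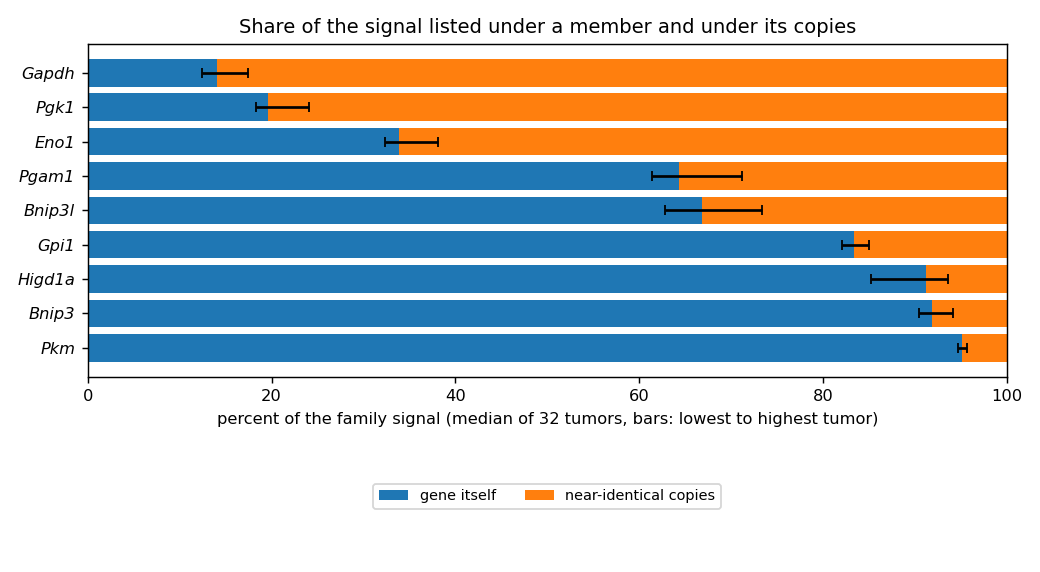
Stacked bars of the share (percent, x axis) of a family's normalized counts listed under the member itself (blue) and under its near-identical copies (orange), for 9 members (y axis), as the median of 32 tumors with black bars from the lowest to the highest tumor. Gapdh, Pgk1 and Eno1 have most of their family's counts at copies, with medians of 85.9, 80.3 and 66.1%, and the shares of Higd1a, Bnip3 and Pkm lie under 15%.

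Pfkfb3 makes fructose 2,6-bisphosphate, the strongest activator of phosphofructokinase, and was the largest riser after Eno2. It had 602, 914 and 1215 normalized counts in untreated tumors, 994, 1252 and 1779 with ADU-S100, 1015, 1393 and 1622 with anti-LTβR and 1344, 1680.1 and 2111 with the combination. Combination tumors did not overlap untreated tumors, and the medians of both single-agent groups lay between, with ranges that overlapped both. The mean went from 898 ± 194 to 1735 ± 290.4 (SD, n = 8), a log2 fold change of 0.96 ± 0.13 (adjusted p = 5.52e-05, limma). Its paralogue Pfkfb4 did not pass (−0.17, adjusted p = 0.065), so that the per-kilobase ratio of Pfkfb4 to Pfkfb3 went from a median of 2.78 to 1.45, and the 8 combination ratios (1.01 to 1.69) lay below the 8 untreated ratios (2.38 to 5.16).

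Lactate genes gave opposite directions for the 2 transporters. Slc16a1 (MCT1) carries lactate in either direction and is the common importer, whereas Slc16a3 (MCT4) is the low-affinity exporter of glycolytic cells and a HIF target. Slc16a1 had 1490.5, 1679.9 and 1857 normalized counts in untreated tumors, 1369, 1475 and 1799.7 with ADU-S100, 1178, 1275 and 1362 with anti-LTβR and 950.0, 1095 and 1463 with the combination. No combination or anti-LTβR tumor reached the lowest untreated tumor. With the combination it fell by 0.57 on the log2 scale (SE 0.08, adjusted p = 6.26e-05, limma). Slc16a3 had 885, 1021 and 1465 in untreated tumors, 773, 1016 and 1313 with ADU-S100, 942, 1065 and 1252 with anti-LTβR and 1158, 1419.5 and 1690.2 with the combination. A single untreated tumor, at 1465, overlapped the combination range, and the others were at or under 1084. Slc16a3 rose by 0.46 ± 0.10 (adjusted p = 0.0017, limma).

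The per-kilobase ratio of Slc16a3 to Slc16a1 was 0.419 to 0.699 in untreated tumors (median 0.514), 0.426 to 0.796 after ADU-S100 (0.573), 0.604 to 0.885 after the antibody (0.710) and 0.659 to 1.44 after both (1.01). Ldha, which reduces pyruvate to lactate, had 19141, 21150.2 and 25556 normalized counts in untreated tumors, 17133, 23227 and 24671 with ADU-S100, 19587, 21112 and 24038 with anti-LTβR and 15304, 19681 and 20515 with the combination. It fell by 0.21 on the log2 scale (SE 0.08, adjusted p = 0.041, limma), with overlapping ranges, a call that was lost in 6 of 15 alternatives. Neither pyruvate dehydrogenase kinase, which would divert pyruvate from mitochondria, passed (Pdk1 0.07, Pdk3 −0.09).

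**Figure D3:**
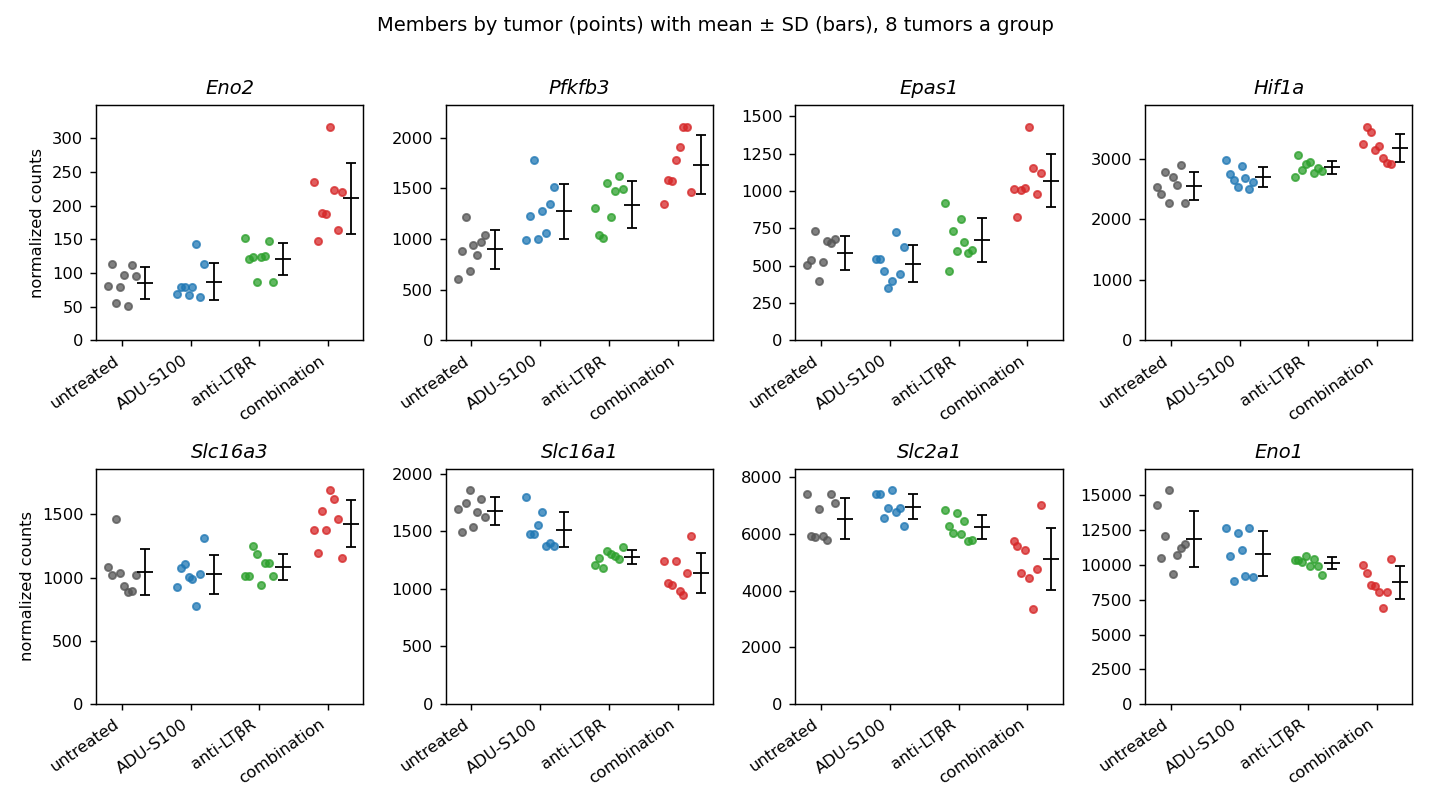
Normalized counts (y axis, each panel on its own scale) of 8 members in each of 8 tumors per group (x axis), with mean and SD. Eno2, Pfkfb3, Epas1 and Hif1a are higher in every combination tumor than in every untreated tumor and Slc16a1 is lower in every one, while Slc16a3, Slc2a1 and Eno1 overlap.

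Of the 4 genes of the oxygen-sensing machinery in the set, 3 rose and 0 fell, a number too small to read against the 19.6% and 23.6% of all genes. Epas1, the HIF-2α subunit, which is prominent in endothelium, had 398, 594 and 731 normalized counts in untreated tumors, 349.5, 507 and 728 with ADU-S100, 463, 631 and 923 with anti-LTβR and 827, 1017 and 1432 with the combination. All combination tumors lay above all untreated and all ADU-S100 tumors. The log2 fold change was 0.88 ± 0.12 (adjusted p = 5.83e-05, limma), from 586 ± 112 to 1070.1 ± 176 (mean ± SD, n = 8). Hif1a had 2267, 2550.1 and 2905 in untreated tumors, 2494, 2667 and 2976 with ADU-S100, 2704, 2836 and 3059 with anti-LTβR and 2906, 3171 and 3531 with the combination. The lowest combination tumor and the highest untreated tumor were all but equal, and the change was small against that of Epas1, at 0.32 ± 0.06 (adjusted p = 0.00052, limma).

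Egln3, a prolyl hydroxylase that is itself induced by HIF, had 601, 922 and 1181 normalized counts in untreated tumors, 721, 1003 and 1394 with ADU-S100, 921, 1074 and 1331 with anti-LTβR and 928, 1220.5 and 1473 with the combination. It rose by 0.43 ± 0.12 (adjusted p = 0.0091, limma) with overlapping ranges. Egln1, the main oxygen sensor in most tissues, did not pass (−0.11). Among HIF-1α and HIF-2α mRNAs the per-kilobase ratio of Epas1 to Hif1a had a median of 0.235 in untreated and 0.348 in combination tumors.

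Of the 8 other hypoxia response genes 0 passed upward and 1 passed downward, and of the 3 genes of mitophagy and mitochondrial adaptation 0 and 1, numbers too small to read against the background of 19.6% and 23.6%. P4ha1, a collagen prolyl hydroxylase subunit, had 3911, 4281 and 4869 normalized counts in untreated tumors, 4262, 4788 and 5787 with ADU-S100, 3991, 4617 and 4913 with anti-LTβR and 3478, 3922 and 4209.9 with the combination, and fell by 0.13 (log2, SE 0.05, adjusted p = 0.041, limma), a call that held in only 4 of 15 alternatives. Higd1a, a mitochondrial protein that modulates respiration in hypoxia, fell by 0.25 (log2, SE 0.10, adjusted p = 0.049), and kept that call in 6 of 15. Log2 fold changes of members that did not pass were −0.39 for Ankrd37, −0.26 for Ndrg1, −0.17 for Ddit4, an inhibitor of mTORC1, −0.16 for the histone demethylase Kdm3a, −0.10 for the vasodilator peptide Adm, −0.04 for the mitophagy receptor Bnip3, −0.10 for Bnip3l, −0.03 for the Myc antagonist Mxi1 and 0.13 for P4ha2. Car9, the membrane carbonic anhydrase often used as a hypoxia marker, had 38.1, 116 and 164 in untreated and 48.7, 62.9 and 113 in combination tumors. At −0.57 on the log2 scale it did not pass (adjusted p = 0.077, limma). Alone among the alternatives, DESeq2 (−0.64, adjusted p = 0.025) and edgeR with TMM (−0.64, adjusted p = 0.041) called it lower.

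Sequence upstream of 6 members, picked after their values were seen, is shown because these genes went in opposite directions while all but Eno2 hold core letters of a HIF site. The core motifs searched were ACGTG and GCGTG on both strands (CACGT and CACGC read backwards), and ACGTG overlaps its own complement within CACGTG. Upstream bases are from RefSeq on GRCm38.p6, 5′ to 3′ on the gene's strand, with annotated exon bases left out and matches in capitals. The stretches are chr3:104638414-104638663 (+) for Slc16a1, chr4:119108495-119108710 (+) for Slc2a1, chr10:59323046-59323295 (+) for P4ha1, chr6:124769674-124769862 (−) for Eno2, chr2:11502102-11502340 (−) for Pfkfb3 and chr11:120948817-120949052 (+) for Slc16a3. Where a gene has several windows, that with most matches is shown. For Pfkfb3 and Slc16a3 it precedes a start inside the gene's span, and the window at the 5′ end of Pfkfb3 holds 1 match.
Slc16a1: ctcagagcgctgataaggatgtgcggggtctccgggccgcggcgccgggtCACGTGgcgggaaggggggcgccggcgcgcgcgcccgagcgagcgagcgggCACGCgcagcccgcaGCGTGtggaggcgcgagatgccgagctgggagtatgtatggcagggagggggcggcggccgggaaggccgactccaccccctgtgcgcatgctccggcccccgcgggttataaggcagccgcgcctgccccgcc
Slc2a1: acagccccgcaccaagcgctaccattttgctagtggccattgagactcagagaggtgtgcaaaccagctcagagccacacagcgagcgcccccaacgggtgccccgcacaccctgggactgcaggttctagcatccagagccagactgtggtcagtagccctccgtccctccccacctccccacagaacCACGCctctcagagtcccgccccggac
P4ha1: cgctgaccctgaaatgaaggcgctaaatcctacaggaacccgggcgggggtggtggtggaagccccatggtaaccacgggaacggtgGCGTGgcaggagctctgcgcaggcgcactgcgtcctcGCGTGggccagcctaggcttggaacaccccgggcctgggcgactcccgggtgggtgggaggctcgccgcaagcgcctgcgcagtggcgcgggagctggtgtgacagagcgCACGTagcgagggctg
Eno2: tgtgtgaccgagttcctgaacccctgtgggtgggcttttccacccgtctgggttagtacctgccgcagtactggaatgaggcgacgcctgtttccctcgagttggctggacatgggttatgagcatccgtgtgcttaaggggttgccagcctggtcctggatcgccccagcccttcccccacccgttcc
Pfkfb3: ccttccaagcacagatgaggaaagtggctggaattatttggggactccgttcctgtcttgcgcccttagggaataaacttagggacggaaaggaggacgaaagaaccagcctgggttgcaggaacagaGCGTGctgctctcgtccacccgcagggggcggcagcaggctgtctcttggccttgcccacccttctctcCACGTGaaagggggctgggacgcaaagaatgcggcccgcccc
Slc16a3: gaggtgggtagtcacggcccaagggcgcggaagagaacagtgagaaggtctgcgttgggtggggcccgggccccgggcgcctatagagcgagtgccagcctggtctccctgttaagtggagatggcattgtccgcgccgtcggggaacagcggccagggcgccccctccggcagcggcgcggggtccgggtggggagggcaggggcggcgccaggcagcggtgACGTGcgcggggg

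Slc16a1, which fell, holds 4 matches in the printed stretch, Pfkfb3, which rose, and P4ha1, which fell, hold 3 each, Slc2a1 and Slc16a3 hold 1 each, and Eno2 holds 0. Windows from 250 bases before to 50 bases after the transcription start were matched for 37 of the 40 symbols, and 33 of them (89.2%) hold a core motif, against 46.7% of 27025 genes with a window and 64.7% of 11732 genes tested here. The upstream bases of members are also richer in G and C, with a median of 62.2% against 52.4% over all windows, and both motifs hold CG. A match is letters only, and no match says nothing of more distant elements. In GENCODE coordinates of GRCm38, Eno2 lies at chr6:124760053-124769673, Pfkfb3 at chr2:11471433-11554077, Epas1 at chr17:86753700-86833410, Hif1a at chr12:73901375-73947530, Slc16a1 at chr3:104638668-104658462, Slc16a3 at chr11:120948480-120960868 and Slc2a1 at chr4:119108711-119137983.

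The cell makeup of the tumors moved with these members. In bulk RNA, fewer cells of a type and less RNA per cell cannot be told apart. Of the epithelial tumor cell markers, 4 of 7 tested fell with the combination and 0 rose, and the sum of the 8 listed was 16177 to 29313 normalized counts in untreated and 6911 to 14945 in combination tumors. All 5 endothelial markers rose (sum 1076 to 1586 against 1923 to 2748), all 5 fibroblast markers rose (59973 to 96072 against 101303 to 369587), and 4 of 5 leukocyte markers rose (9919 to 13468 against 11992 to 16267). T cell markers rose in 5 of 5, B cell markers in 3 of 4, macrophage markers in 3 of 5 and neutrophil markers in 1 of 4, while 0 of 4 erythroid, 0 of 3 adipocyte, 0 of 4 keratinocyte and 0 of 4 proliferation markers passed. None of these markers had a median of 0. The part of these shifts in the changes of Epas1, Eno2, Pfkfb3, Slc16a1, Slc2a1 and the other members was not tested.

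Skeletal muscle RNA also varied between tumors, in every group. The sum of 7 muscle markers was 6808 to 18515 normalized counts in 12 tumors (5 untreated, 2 ADU-S100, 2 anti-LTβR and 3 combination) and 70851 to 429628 in the other 20. Pfkm ran from 490 to 946 in the first 12 tumors and from 1569 to 7870 in the others, and Aldoa, whose product is the aldolase of muscle, from 19840 to 24253 and from 27032 to 46291. The 2 sets do not overlap for either gene. With the muscle sum as a covariate, a choice made after seeing the data, Pfkm rose by 0.28 ± 0.07 with the combination (adjusted p = 0.0048, limma) and Aldoa stood at −0.05 (adjusted p = 0.69). Of the muscle markers 0 of 7 passed in combination against untreated tumors, with a median log2 fold change of 1.48. In the 8 low-muscle tumors of that comparison alone (3 combination against 5 untreated) 8 members passed upward and 1 downward, where 11.8% and 8.9% of all genes tested did. Eno2, Pfkfb3, Epas1, Hif1a, Slc16a3, Egln3 and Slc16a1 kept their calls, Pfkm (0.48, adjusted p = 0.024, limma) and P4ha2 (0.29, adjusted p = 0.044) were called there, and Slc2a1, Hk2, Eno1, Pgk1, Ldha, Higd1a, Pgam1 and P4ha1 lost theirs. Of these, Hk2 went to 0.16, Pgam1 to −0.12 and P4ha1 to −0.08, while Slc2a1 stood at −0.29, Eno1 at −0.41, Pgk1 at −0.36, Ldha at −0.27 and Higd1a at −0.24.

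Car12, another carbonic anhydrase, ran from 6.73 to 369 normalized counts over the 32 tumors, and its log2 fold change of 0.27 with the combination did not pass (adjusted p = 0.80). The 10 tumors with the highest Car12, each at 103 or more, were the 10 with the highest sum of 4 keratinocyte markers, each at 16468 or more, while in the other 22 tumors Car12 was at most 67.0 and the keratinocyte sum at most 8923. These tumors grew under the skin. Whether skin RNA accounts for Car12 was not tested.

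**Figure D4:**
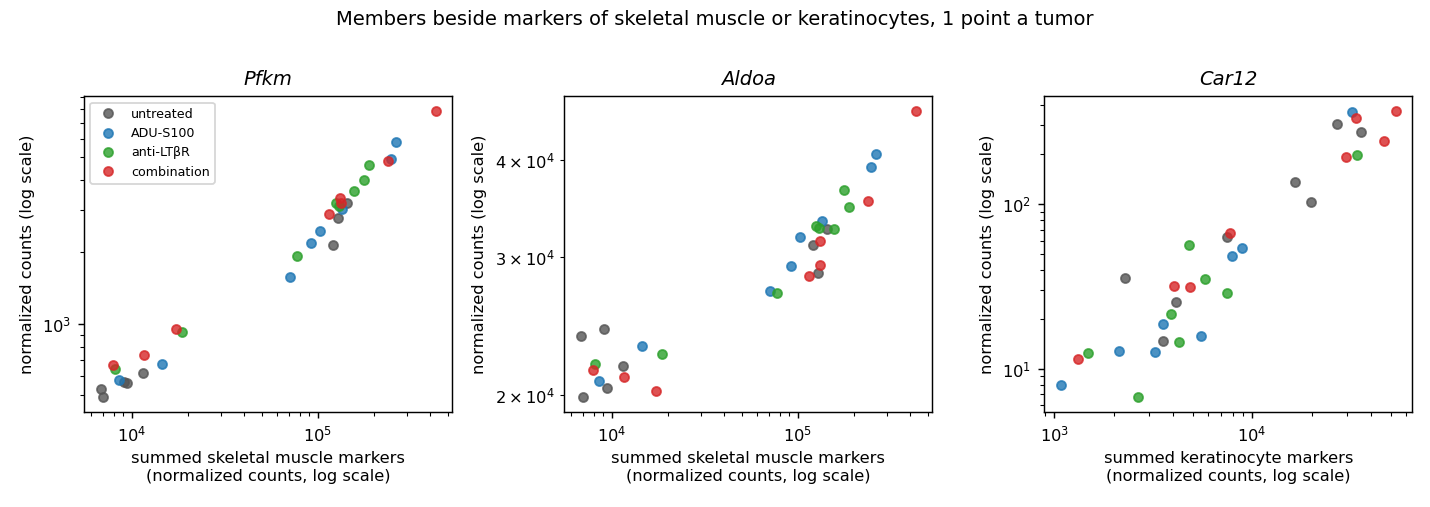
Normalized counts of Pfkm and Aldoa against the summed skeletal muscle markers, and of Car12 against the summed keratinocyte markers (log axes, 1 point per tumor, 32 tumors, colored by group). Pfkm is at most 946 in the 12 tumors with a muscle sum under 20000 and at least 1569 in the other 20, and the 10 highest Car12 values belong to the 10 highest keratinocyte sums.

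Anti-LTβR alone changed 5 members against untreated tumors, 3 upward and 2 downward, or 7.32% and 4.88% against 7.21% and 8.1% of the genes tested. Slc16a1 fell by 0.39 on the log2 scale (SE 0.05, adjusted p = 0.00026, limma), with all 8 treated tumors below all 8 untreated ones. The share of all genes without overlap is not given for that comparison. Hk2 rose by 0.30 ± 0.07 (adjusted p = 0.010), Pfkfb3 by 0.59 ± 0.14 (adjusted p = 0.011) and Hif1a by 0.17 ± 0.05 (adjusted p = 0.038), a call that was lost in 5 of 12 alternatives (adjusted p 0.018 to 0.11). Adm, which had 51.1, 107 and 157 normalized counts in untreated tumors, 47.8, 72.8 and 115 with ADU-S100, 54.8, 67.6 and 83.2 with anti-LTβR and 56.5, 105 and 147 with the combination, fell by 0.65 (log2, SE 0.18, adjusted p = 0.023), and did not pass with the muscle covariate (adjusted p = 0.051). Eno2 was at 0.52 and did not pass (adjusted p = 0.057), and Epas1 was at 0.19 (adjusted p = 0.34).

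ADU-S100 alone gave 0 members that passed, higher or lower, as it gave 0% of all genes in either direction (limma). At an unadjusted p under 0.05 there were 5 members and 2408 genes. The smallest adjusted p among the members was 0.276, for Hk2 (0.32 ± 0.07) and Pfkfb3 (0.51 ± 0.14). DESeq2 called the same 2 members on the recovered reads (0.31 with adjusted p = 0.018, and 0.50 with adjusted p = 0.049). That fit called 0.931% higher and 0.223% lower of the 4943 genes it gave an adjusted p, while limma tested 16613 genes. edgeR called 0 members. The 3 sets of values against untreated tumors share the same 8 controls. For Slc16a1 they were −0.15 for ADU-S100, −0.39 for the antibody and −0.57 for the combination, for Pfkfb3 0.51, 0.59 and 0.96, for Hk2 0.32, 0.30 and 0.28, and for Epas1 −0.20, 0.19 and 0.88.

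Against anti-LTβR alone the combination differed in 10 members, 5 higher and 5 lower, where the background was 11.3% and 15.3%. Epas1 rose by 0.68 ± 0.13 (adjusted p = 0.0017, limma), Eno2 by 0.79 ± 0.15 (adjusted p = 0.0021) and Slc16a3 by 0.39 ± 0.08 (adjusted p = 0.0027), followed by Pfkfb3 at 0.37 and Hif1a at 0.15. P4ha1 fell by 0.21, Eno1 by 0.23, Pfkp, the platelet-type phosphofructokinase, by 0.17, Hk1 by 0.19 and Slc2a1 by 0.31 on the log2 scale. Of these, P4ha1 passed in all 14 alternatives, while Slc2a1 was lost in 7 of 14 and Hk1 and Pfkp in 5 each. Without combination tumor 6, 6 members were higher and 2 lower, as Slc2a1, Hk1, Pfkp and Pfkfb3 did not pass and Adm and Car12 did. The split moved with the processing. TMM rescaling gave 6 members higher and 2 lower, edgeR gave 5 and 1 of the 35 identifiers it could test, with TMM and with library totals alike, and over all genes the split moved from 1917 higher and 2587 lower to 2174 and 1776 with TMM rescaling. Combination tumors 7 and 8 stood apart with neutrophil marker sums of 18707 and 15468, against 3233 to 7772 in the other 6, and erythroid sums of 56860 and 42869, against 9657 to 14717. Without them 19 members passed, 5 higher and 14 lower, where 10.7% and 14.5% of all genes tested passed in that fit.

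Against ADU-S100 alone 18 members differed, 6 higher and 12 lower, where the background was 20.2% and 26%. Epas1 rose by 1.08 ± 0.14 (adjusted p = 2.5e-05, limma) and Eno2 by 1.28 ± 0.18 (adjusted p = 4.1e-05), both without overlap and both over 2-fold. Slc16a3, Pfkfb3, Egln3 and Hif1a rose by 0.48, 0.46, 0.36 and 0.24. P4ha1 fell by 0.32 (log2, SE 0.06, adjusted p = 0.00068), with every combination tumor below every ADU-S100 tumor, and Slc2a1 by 0.47, Slc16a1 by 0.42, Pfkl by 0.32 and Ndrg1 by 0.32 headed the remaining decreases, of which that of Ndrg1 was lost in 7 of 14 alternatives. TMM rescaling gave 6 higher and 8 lower. The shares of all genes without overlap or over 2-fold are not given for this comparison, so these separations have no background.

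The 4 groups form a 2 by 2 design, and the interaction term asks whether the combination differed from the sum of the single-agent effects on the log2 scale. It passed for 11 members, 4 positive and 7 negative, where 7.33% and 11% of 17649 genes passed. P4ha1 had the smallest adjusted p, with an interaction of −0.40 ± 0.08 (adjusted p = 0.0019, limma): against untreated tumors it was at 0.19 for ADU-S100, 0.07 for the antibody and −0.13 for both. Epas1 followed at 0.88 ± 0.20 (adjusted p = 0.0033). Adm was at 1.06 ± 0.29 (adjusted p = 0.012), since both single-agent medians lay under those of untreated and combination tumors. Hk2 was at −0.34 ± 0.10 (adjusted p = 0.014), with 3 treated groups at a similar level. Pfkp, with 2594, 3057 and 3322 normalized counts in untreated tumors, 2768, 3297 and 3443 with ADU-S100, 2998, 3193 and 3792 with anti-LTβR and 2522, 2938 and 3180.1 with the combination, was at −0.25 ± 0.08 (adjusted p = 0.025). The others were Slc2a1 (−0.41), Slc16a3 (0.41), Hk1 (−0.28), Eno2 (0.76), Pfkl (−0.30) and Egln1 (−0.26). Pfkfb3, Slc16a1, Hif1a, Egln3 and Eno1 did not pass for the interaction. TMM rescaling gave 4 positive and 5 negative members. Without combination tumor 6, 7 members passed, 3 positive and 4 negative, as Eno2, Slc16a3, Hk1, Pfkl and Egln1 did not pass and Car12 did. The Egln1 interaction was lost in 9 of 13 alternatives, that of Pfkl in 5 of 10, that of Hk1 in 4 of 13 and that of Slc2a1 in 3 of 13.

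**Figure D5:**
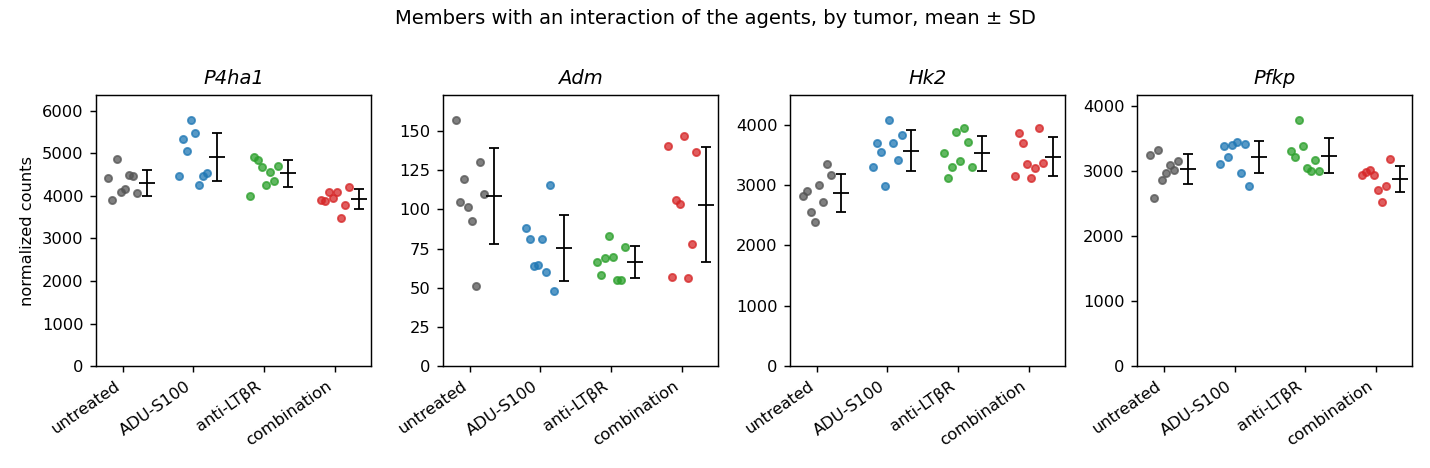
Normalized counts (y axis) of P4ha1, Adm, Hk2 and Pfkp in each of 8 tumors per group (x axis), with mean and SD. Hk2 is similar in the 3 treated groups, the medians of Adm are 72.8 and 67.6 with the single agents against 107 and 105 in untreated and combination tumors, and P4ha1 is highest with ADU-S100 and lowest with the combination.

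Per kilobase of exon, the members spanned a wide range of levels in untreated tumors. Median normalized counts per kilobase were 8711 for Pkm, 8254 for Aldoa, 6390 for Ldha, 4282 for Tpi1, 3358 for Pgam1, 2112 for Eno1 and 1831 for Slc2a1, and at the other end 66.3 for Adm, 50.5 for Car9 and 18.9 for Eno2, with Car12 lowest. Counts listed under near-identical copies are left out, so the order is uncertain for members such as Gapdh, Pgk1, Eno1 and Pgam1. Within groups the members were as steady as other genes, with a median SD of 0.189 on the log2 scale against 0.206 over all genes. Hif1a (0.098) and Pkm (0.108) varied least between tumors of a group, and Car12 (1.65), Pfkm (1.20) and Car9 (0.60) most. In the combination group, tumor 8 had the highest value for 25 of the 41 identifiers and tumor 6 the lowest for 21. Combination tumor 6 also had the largest share of mitochondrial counts of all libraries (4.04%, the next 2.92%), the highest muscle sum (429628) and the lowest epithelial sum (6911). Without it 7 members were higher and 5 lower than in untreated tumors, as Higd1a, Pgam1 and P4ha1 did not pass; the part of these features in the results was not tested.

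Genes of neighboring pathways, listed by function, were read in the same comparison. Of 80 listed, 72 could be tested in combination against untreated tumors, and 16 rose and 11 fell, which is 22.2% and 15.3% against the 19.6% and 23.6% of all genes tested. Among other isozymes and transporters of glycolysis 4 of 14 rose and 2 fell: Hk3, the leukocyte hexokinase, by 1.02 (adjusted p = 0.00021, limma) and Slc2a3, the high-affinity glucose transporter GLUT3, by 0.77 (adjusted p = 0.00055), while Pgm2 fell by 0.24. Slc2a3 had 123, 168 and 205 normalized counts in untreated tumors and 204, 280 and 398 with the combination, the reverse of Slc2a1 in direction. Of the genes that bring pyruvate into mitochondria, 0 of 12 rose and 1 fell (Dld, by 0.23); Mpc1 at 0.29 and Pdk2 at 0.76 did not pass. Of gluconeogenesis 0 of 4 rose and 1 fell (Pck2, the mitochondrial form of the enzyme, by 0.57; Pcx at 0.35 and Fbp2 at 0.67 did not pass).

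Lists of 7 and 9 genes are too small to read against the 19.6% and 23.6% of all genes tested that rose and fell. Of the pentose phosphate pathway 1 of 7 rose and 3 fell, with decreases of Rpe (−0.37) and the transketolase Tkt (−0.32) and an increase of Pgd (0.20). Of HIF partners and regulators 2 of 9 rose, Arnt by 0.24 (adjusted p = 0.0029, limma) and Arnt2 by 0.33, and the elongin subunit Elob fell by 0.24. Of 26 other hypoxia targets 9 rose and 3 fell, or 34.6% and 11.5% of the list. Among those that rose were Loxl2, a collagen cross-linking oxidase, at 1.15 (adjusted p = 0.00011) and the circadian repressor Bhlhe41 at 0.49. Vegfa, the angiogenic factor, named after its value was seen, fell by 0.46 (adjusted p = 0.0032).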

How the data were processed

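RNA of 32 tumors (8 a group) was sequenced from stranded poly(A) libraries. Per gene, the authors deposited normalized counts, used here as a signal and not as raw counts; the submitters' processing notes list cutadapt 1.9, FastQC, HISAT2, StringTie, DESeq2, edgeR, Partek, STAR and mm39, and which tool made which table is not given in the sources used here. A larger table, deposited by the authors as a signal of counts divided by size factors, holds 52 libraries; in each, 100% of the values of up to 200 reads came out as whole reads (tolerance 0.1), and these reads were used for alternatives with 35 of the 41 member identifiers. The authors' gene set enrichment table (scores and p-values) was not used.

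Groups come from the labels, and p-values measure the spread between tumors. Genes passing edgeR's filterByExpr (minimum 10) were tested with limma 3.58.1 (R 4.3.3, eBayes with trend) on log2(normalized count + 1), within the 16 libraries of each comparison, with Benjamini-Hochberg adjustment over all genes tested; the interaction used all 32 libraries. The log2(value + 1) scale understates changes of low genes. The fits were tested on simulated data. Alternatives were edgeR 4.0.16 (quasi-likelihood, with TMM or library totals) and DESeq2 1.42.0 on recovered reads, other filters, a pseudocount of 0.5, TMM rescaling, a replicate block, a 2-fold threshold, libraries above 14000000 reads and a joint fit, and, chosen after seeing the data, a muscle covariate, low-muscle tumors, summed copies and leaving out combination tumors 7 and 8 or tumor 6. The members and lists were chosen with earlier results of these data known. Values per group are given for members that changed at least 2-fold, the 12 with the smallest adjusted p in combination against untreated tumors and the 5 with the smallest for the interaction; of each neighboring pathway list the 3 with the smallest adjusted p are named, except 1 gene that is not reported here. Copies were found with blastn 2.17.0+ between transcripts. Exon lengths and gene positions are from GENCODE on GRCm38 and upstream sequences from RefSeq on GRCm38.p6; coordinates in the files, on another build, were not used.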

Additional observations from a re-analysis of the deposited data

Results flagged for a closer look

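Within groups of 8 tumors, 164 checks of a member's highest and lowest tumor by Dixon's test at the 95% level found 9 values, in 8 tumors, far from the rest, where chance gives about 1 in 20. The lowest tumors of this kind were anti-LTβR tumor 8 for Pfkl (2879 normalized counts), ADU-S100 tumor 6 for Tpi1 (9605) and for Gapdh (3984), combination tumor 5 for Ldha (15304), combination tumor 6 for Ddit4 (1306) and untreated tumor 6 for Adm (51.1). The highest were untreated tumor 3 for Slc16a3 (1465), untreated tumor 1 for Bnip3 (2491) and anti-LTβR tumor 3 for P4ha2 (2331).

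The effect of ADU-S100 differed between tumors with and without anti-LTβR for 11 members by the interaction term of limma over 32 tumors. The interaction on the log2 scale was −0.40 for P4ha1, 0.88 for Epas1, 1.06 for Adm, −0.34 for Hk2, −0.25 for Pfkp, −0.41 for Slc2a1, 0.41 for Slc16a3, −0.28 for Hk1, 0.76 for Eno2, −0.30 for Pfkl and −0.26 for Egln1. Those of P4ha1, Epas1 and Adm passed in all 13 alternatives run, that of Hk2 was lost in 1, those of Eno2, Slc16a3 and Pfkp in 2, that of Slc2a1 in 3, that of Hk1 in 4, that of Pfkl in 5 and that of Egln1 in 9.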

How the results depend on the processing

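Of 59 calls of a member in a comparison, 27 passed under every alternative run (2-fold threshold apart), 32 were lost in at least 1 and 0 reversed; of 793 values 673 kept their side of the threshold. In combination against untreated tumors Eno2, Epas1, Pfkfb3, Hif1a, Egln3 and Slc16a1 passed in all 15 of these alternatives and Slc16a3 in the 12 run for it, without edgeR and DESeq2. The Hif1a call with anti-LTβR was lost with edgeR and totals, no filter, the replicate block, libraries above 14000000 reads and the muscle covariate. The count of 15 became 1 with the 2-fold threshold and 9 in the 8 tumors low in muscle RNA; the cause was not tested. For anti-LTβR the count of 5 became 0 at 2-fold. For ADU-S100 the count of 0 became 2 with DESeq2. For combination against anti-LTβR the count of 10 became 6 with edgeR (TMM or totals), 6 above 14000000 reads, 0 at 2-fold, 16 with the muscle covariate and 19 without combination tumors 7 and 8; the cause was not tested. Against ADU-S100 the count of 18 became 2 at 2-fold. For the interaction the count of 11 became 6 with edgeR and TMM, 5 with edgeR and totals, 5 above 14000000 reads and 7 without combination tumor 6, a tumor left out after seeing the data, with the cause not tested; edgeR and DESeq2 could test only 35 of the 41 identifiers. The muscle restriction was not run for the other comparisons, which leave under 3 tumors in an arm. Unless a share of all genes is printed for that fit, a count of members under an alternative stands without its background. A shift of members alone cannot then be told from a shift of all genes.

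The labels number tumors 1 to 8 in each group, without saying that a number is shared. Same-numbered tumors correlated by −0.09 to 0.19 on average, with at most 5 of 8 pairs over 0.1 and single pairs from −0.53 to 0.67. Such correlations cannot decide whether a number pairs tumors, and the main fits treated the tumors as unpaired. With the replicate block the counts were 16 for combination against untreated, 4 for anti-LTβR, 1 for ADU-S100 (Pfkfb3), 13 and 16 for the combination against anti-LTβR and ADU-S100, and 9 for the interaction.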

Other observations

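The larger table also holds 20 libraries of another experiment on the same kind of tumor, of which 15 have labels that contradict each other on treatment and were put in no group. Over these 15, Hk2 ran from 1137 to 2453 normalized counts (median 1992), and 14 were below the lowest of the 32 tumors in that table (2400). Hif1a ran from 1822 to 5160 (median 4005), with 11 above the highest of the 32 (3575). Pgk1 ran from 5238 to 21280 (median 8960), with all 15 above the highest of the 32 (4608), and Bnip3l from 2915 to 3954 with all 15 above 2166. Levels of Pgk1 and Bnip3l are uncertain because of their near-identical copies. The share of all genes that lie outside the range of the 32 is not given, so these counts are not read as a result about the members. Eno2 ran from 44.3 to 158, with 1 library below the lowest of the 32 (52.9).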
